A study of Mus musculus with 399 samples.

Results

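Soleus muscle of C57BL/6J (B6) mice fed standard chow was compared between 20 and 5 weeks of age, with 12 libraries at each age, 6 from males and 6 from females. These 24 libraries were selected by their column labels from a series of 399 RNA-seq samples, of which 97 are soleus. The series covers liver, gonadal fat, pancreas and soleus of B6 and TALLYHO/Jng (TH) mice on chow or a high-fat diet. Weaning onto the diet took place at 4 weeks, so the younger B6 animals had eaten chow for 1 week and the older ones for 16 weeks. Both age groups are wild-type B6 mice with no drug or transgene, and different animals make up the 2 ages, as shown by the animal number in each sample label. The tissue was taken whole, so fewer cells of a type and less RNA per cell cannot be told apart. As a second strain, the same ages on chow were read in 23 TH soleus libraries, 11 at 5 weeks and 12 at 20 weeks. TALLYHO is an inbred line that becomes obese and, in males, diabetic with age.

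The soleus is a postural calf muscle built largely of slow, oxidative fibres that express the slow myosin gene Myh7, mixed with fast oxidative fibres that express Myh2. At weaning a mouse is still growing: bones lengthen, tendon and the muscle's connective tissue lay down collagen, and satellite cells, the muscle stem cells, still add nuclei to fibres before entering quiescence. In the adult, matrix synthesis slows, while the membranes, ion channels and fuel-handling enzymes of the contracting fibre are maintained by constant turnover.

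Total counts ran from 5383803 to 17097812 per library, with a median of 11496764.5. Levels below are counts scaled to library size (CPM). The first principal component of the 24 libraries, 39.9% of the variance over 1000 genes, separated the 2 ages. The tissue label held in the markers: the authors' FPKM of Myh7 had medians of 1102 at 5 weeks and 1233 at 20 weeks, and the pancreatic trypsinogen Prss2 did not exceed 0.0951 CPM in any library. Some single libraries departed from their group. Female 5-week 5, male 5-week 1, male 5-week 5 and male 20-week 6 lay over 1.5 times the median distance from the mean of their group. Female 5-week 1 carried the epidermal keratin Krt5 at 231 CPM, against a median of 0 at both ages. The summed level of Schwann cell and nerve markers was 1857 CPM in male 5-week 2 and 3778 CPM in male 5-week 4, against a 5-week median of 604 CPM; both are called nerve-rich, by a rule on 1 marker of that list. Each count of genes was also computed without the first 4 and, separately, without the last 3 of these libraries. In the comparison with TH, TH libraries picked by the same rules were left out as well. The deviating ones were TH female 5-week 2, male 20-week 1, male 20-week 5, male 5-week 1 and male 5-week 2. The nerve-rich ones were TH male 20-week 4 and male 5-week 4.

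With sex as a covariate, 7862 of 15694 genes tested, 50.1%, passed an adjusted p of 0.05 (edgeR quasi-likelihood test, Benjamini-Hochberg adjustment). Of these, 3798 genes (24.2% of those tested) were higher at 20 weeks and 4064 (25.9%) were lower. Large changes were mostly falls. Changes of at least 2-fold among the called genes (7.12% of those tested) numbered 916 lower (5.84%) and 201 higher (1.28%). Ranges of the 2 ages did not meet in 887 genes (5.65%). In 594 genes (3.78%) every 20-week library lay above every 5-week library, and in 293 (1.87%) every one lay below. The median log2 change over all genes tested was -0.03. Because every second gene passed the test, the share called in a list is read below against these percentages.

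**Figure D1:**
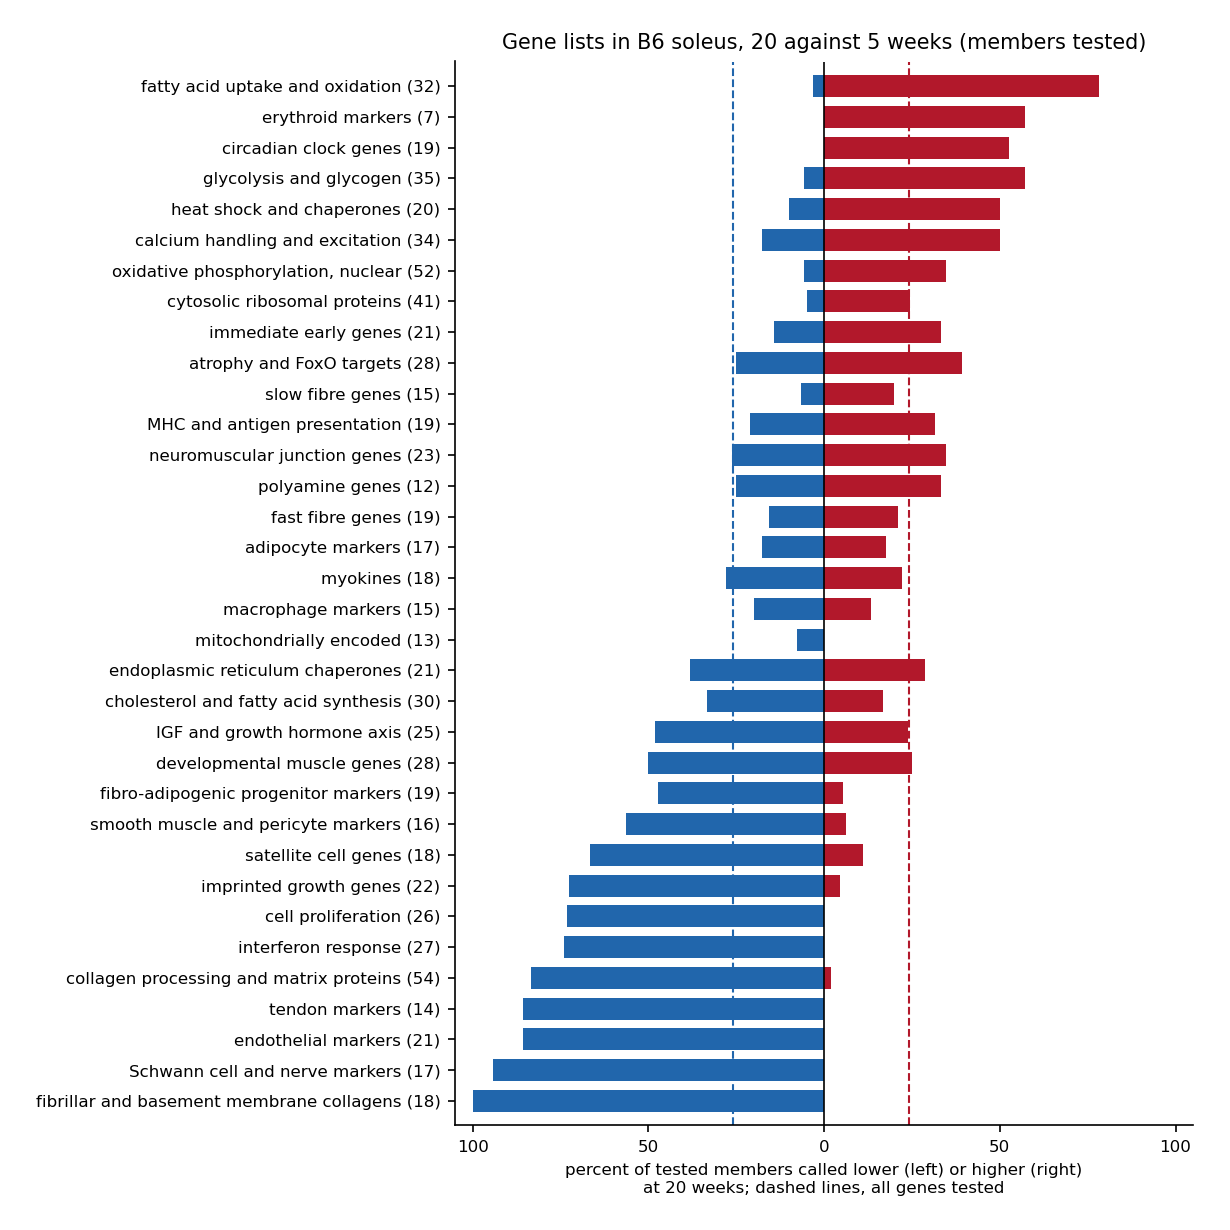
Share of tested members called higher (red, right) or lower (blue, left) at 20 weeks, in percent, for each gene list with at least 7 tested members, whose number stands in brackets. Dashed lines mark the share over all genes tested, 24.2% higher and 25.9% lower; collagens, Schwann cell, endothelial and tendon markers reach furthest left and fatty acid genes furthest right.

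Ostn encodes osteocrin (musclin), a peptide that muscle secretes and that prolongs natriuretic peptide signalling. It stood at 5.99, 10.1 and 15.5 CPM at 5 weeks (lowest, median and highest of 12 libraries, as for every such triple below) and at 32.4, 47.2 and 87.9 CPM at 20 weeks. Every 20-week library was above every 5-week one, and the log2 change was 2.43 ± 0.12 (SE; adjusted p = 2.86e-13). Nos1, the neuronal nitric oxide synthase anchored to the dystrophin complex under the fibre membrane, went from 5.82, 8.44 and 11.5 CPM to 20.9, 45.1 and 93.6 CPM. Its ranges were apart as well, with a log2 change of 2.40 ± 0.19 (adjusted p = 4.51e-10). Cyp1a1, a monooxygenase that is the standard target of the aryl hydrocarbon receptor, went from 0.233, 0.457 and 2.00 CPM to 3.48, 6.53 and 38.8 CPM. The highest 20-week value was one male library, male 20-week 6, and the next lay at 16.2 CPM, yet no library of either age entered the range of the other. The log2 change of Cyp1a1 was 3.54 ± 0.41 (adjusted p = 1.12e-07), the largest rise by the naming rule.

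Cyfip2, a subunit of the WAVE complex that drives actin branching, rose from 13.2, 28.2 and 43.7 CPM to 81.8, 145 and 190.0 CPM, a log2 change of 2.35 ± 0.14. The actin nucleation gene Actr3b rose by 1.89 ± 0.17 on the log2 scale, and its ranges did not meet. Chrna2, a neuronal-type nicotinic receptor subunit, rose by 2.42 ± 0.32 with ranges that overlapped (0.377 to 2.98 CPM against 2.54 to 15.2 CPM). The kinase gene Cdkl1 (2.53 ± 0.15), the cadherin Cdh22 (2.29 ± 0.13) and the heparan sulfate sulfotransferase Hs3st5 (2.198 ± 0.18) rose without overlap. Amy1 rose by 2.03 ± 0.24, but the amylase genes are near-identical copies and reads may be split among them. Tmem171 (1.93 ± 0.26) and the methyltransferase Inmt (1.90 ± 0.37) rose with overlapping ranges. Ranges did not meet in 9 of the 12 largest rises, which were chosen for the size of their change in these libraries. Among all genes tested, 3.78% rose without overlap.

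**Figure D2:**
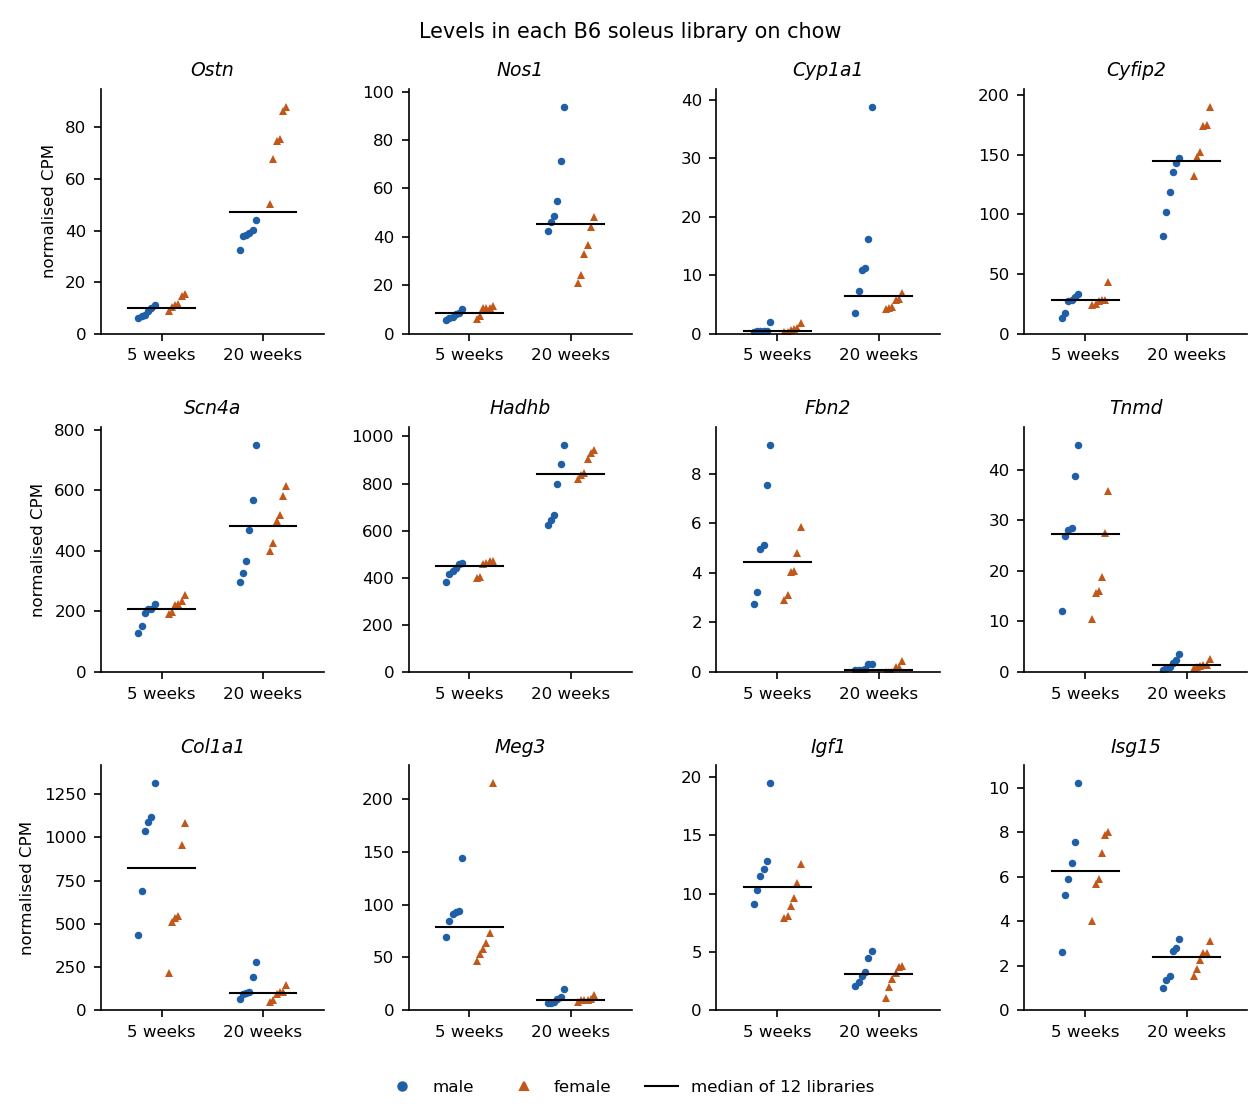
CPM on a linear axis from 0 in every B6 soleus library, males as circles and females as triangles, with the median of 12 libraries as a line. In Ostn, Nos1, Cyp1a1, Cyfip2, Scn4a and Hadhb every 20-week library lies above every 5-week one; in Fbn2, Tnmd, Meg3 and Igf1 every one lies below; Col1a1 and Isg15 overlap.

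The 12 largest falls included collagens and other matrix genes, the non-coding RNAs Meg3, Rian and Mirg, and a pentraxin. Fbn2 encodes fibrillin-2, the microfibril protein of developing tissue. It stood at 2.72, 4.45 and 9.15 CPM at 5 weeks and at 0, 0.0957 and 0.459 CPM at 20 weeks. The fitted log2 change was -4.86 ± 0.33 (adjusted p = 4.15e-11), and at 20 weeks the gene was at or near the lowest count that these libraries resolve. Tnmd, the tenocyte gene tenomodulin, fell from 10.4, 27.2 and 44.9 CPM to 0.469, 1.28 and 3.55 CPM, a log2 change of -4.01 ± 0.29. Kera (keratocan, -4.53 ± 0.35) and the cartilage-type collagen genes Col11a1 (-4.32 ± 0.33), Col2a1 (-3.86 ± 0.36), Col9a2 (-3.65 ± 0.29) and Col11a2 (-3.08 ± 0.23) fell without overlap between the ages. The Wnt-induced matricellular gene Ccn4 fell by 2.91 ± 0.28 on the log2 scale. Ptx4, a pentraxin, fell by 3.28 ± 0.35. It was the only one of the 12 largest falls whose ranges met (2.92 CPM lowest at 5 weeks, 2.94 CPM highest at 20 weeks). These 12 too were chosen for the size of their change, and 1.87% of all genes tested fell without overlap.

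Collagen genes fell as a body. In the list of fibrillar and basement membrane collagens, 18 of 18 members fell, each by at least 2-fold, and 7 did so without overlap. The matching shares over all genes tested were 25.9%, 5.84% and 1.87%. The median log2 change of the list was -1.51, against -0.03 over all genes. Col1a1, which encodes the main chain of type I collagen, stood at 212, 822 and 1314 CPM at 5 weeks and at 47.4, 101 and 281 CPM at 20 weeks, so the ranges touched only through the lowest young library. Its log2 change was -2.79 ± 0.27 (adjusted p = 8.25e-09), and its partner chain Col1a2 changed by -2.59 ± 0.22 with ranges apart. Type III collagen, Col3a1, fell less (-1.42 ± 0.23). The basement membrane chains around each fibre and vessel, Col4a1 (-1.81 ± 0.14) and Col4a2 (-1.51 ± 0.12), and Col15a1 (-1.88 ± 0.15) fell in every comparison of an old with a young library. Col12a1, a collagen at the surface of tendon and muscle fibrils, fell by 2.73 ± 0.26.

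The proteins that build and modify the matrix moved the same way. Of 54 tested members of the matrix list, 45 fell and 1 rose, with a median log2 change of -1.01. Sparc, the collagen-binding protein osteonectin, went from 772, 1260 and 1733 CPM to 253, 346 and 574 CPM. The groups were separate, and the log2 change was -1.75 ± 0.11 (adjusted p = 1.62e-11). Eln, which encodes elastin, fell by 2.00 ± 0.14 on the log2 scale, and the procollagen C-proteinase Bmp1 by 1.14 ± 0.08. The lysyl oxidase Lox (-1.98 ± 0.29), which crosslinks collagen, the protease inhibitor Timp1 (-2.72 ± 0.34) and the membrane protease Mmp14 (-1.54 ± 0.17) fell with overlapping ranges. Dcn and Lum, small proteoglycans that bind mature fibrils, did not pass the test, with log2 changes of -0.31 ± 0.13 (adjusted p = 0.056) and -0.42 ± 0.22 (adjusted p = 0.116). The one member that rose, P3h2, a prolyl hydroxylase, did so by 0.35 on the log2 scale.

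Tendon markers moved together with the matrix genes. Their summed level ran from 266.9 to 1742 CPM with a median of 832 CPM at 5 weeks, and from 216.5 to 804 CPM with a median of 333 CPM at 20 weeks. Of 14 tested tendon markers, 12 fell, with a median log2 change of -1.67; the list shares members with the matrix genes above. The transcription factor Mkx (mohawk) went from 1.46, 2.04 and 3.22 CPM to 0, 0.325 and 0.724 CPM, a log2 change of -2.68 ± 0.28 with ranges apart. Scx (scleraxis), the defining tenocyte factor, changed less, from 22.5, 30.6 and 38.8 CPM to 13.7, 18.97 and 26.1 CPM (-0.63 ± 0.11). Thbs4 (-1.52 ± 0.24) and Cilp2 (-2.87 ± 0.30) fell further. How much tendon was dissected with each muscle was not recorded in the labels, and the part of tendon in the fall of the matrix genes was not tested. Markers of fibro-adipogenic progenitors, the interstitial cells that make muscle collagen, fell in 9 and rose in 1 of 19 (median -0.36). Their summed level had medians of 1322 CPM at 5 weeks and 1142 CPM at 20 weeks, with overlapping ranges.

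Of 34 listed proliferation genes, 26 passed the filter on low counts, and 19 of these fell and 0 rose, with a median log2 change of -1.27; 8 listed genes, Mki67 among them, were too low to be tested. Cdk1, the kinase that drives mitosis, stood at 0.465, 2.00 and 10.3 CPM at 5 weeks and at 0, 0.280 and 1.83 CPM at 20 weeks. The ranges overlapped, and the log2 change was -2.53 ± 0.55 (adjusted p = 0.000469). Top2a, a topoisomerase of dividing cells, changed by -2.82 ± 0.70, and the mitotic kinesin Kif11 by -1.66 ± 0.28. Cdc20 (-2.26 ± 0.45) and Ube2c (-0.85 ± 0.16), which target cyclins for destruction, fell too. Levels were low at both ages. Within a sex, 17 members fell in males and 8 in females, and 16 fell without the nerve-rich and keratin-rich libraries. As CPM scaled jointly with the 47 chow soleus libraries of both strains, the summed list stood at 255.6 in female 5-week 1, the keratin-rich library. It stood at 230.6 in male 5-week 6. The other 5-week libraries lay between 90.7 and 156.2, and overlapped the 20-week range of 74.8 to 124.7.

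The promoters of the proliferation genes are shown because cell cycle genes are known to be switched by short shared elements close to the start site. Of the 34 listed genes, 27 matched a RefSeq promoter on GRCm38.p6, 250 bases before to 50 bases after the start. The letters TTTGAA, the core of the cell cycle homology region, were found on either strand in 15 of 27 (55.6%), against 17.9% of all 32851 promoter windows of the same length. CCAAT, the box bound by NF-Y, was found on either strand in 24 of 27 (88.9%), against 37.4% of all windows. Among the 15 members that fell and matched a promoter, 10 held TTTGAA and 12 held CCAAT. A listed gene counted if any of its windows matched, whereas the share over all is by window. The following are the 120 bases before the start, 5′ to 3′ on the gene's strand, of the 3 members that fell with the lowest p and hold both motifs there, with TTTGAA and CCAAT or their reverse complements in capitals. Only members with a single promoter window, and outside a chromosome that was left out, were eligible for printing. Kif11 lies at chr19:37376262-37376381 (plus strand), Ube2c at chr2:164769809-164769928 (plus strand) and Cdc20 at chr4:118437344-118437463 (minus strand).
Kif11: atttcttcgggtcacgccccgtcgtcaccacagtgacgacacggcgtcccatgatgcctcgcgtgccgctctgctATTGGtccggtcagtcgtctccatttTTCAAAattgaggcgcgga
Ube2c: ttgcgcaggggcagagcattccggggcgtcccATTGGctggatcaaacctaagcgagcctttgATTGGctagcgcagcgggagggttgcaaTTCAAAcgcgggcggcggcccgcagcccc
Cdc20: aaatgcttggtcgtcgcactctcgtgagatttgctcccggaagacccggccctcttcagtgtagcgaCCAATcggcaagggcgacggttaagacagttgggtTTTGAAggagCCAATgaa
These matches describe the sequence, and no binding was measured.

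Imprinted growth genes, which are expressed from only one parental copy and are most active before and soon after birth, included the non-coding RNAs with the largest falls. Meg3, Rian and Mirg are maternally expressed non-coding RNAs of one cluster, and they host small RNAs. Meg3 went from 46.5, 79 and 215.1 CPM to 6.56, 9.81 and 19.8 CPM, a log2 change of -3.12 ± 0.24 (adjusted p = 2.23e-10). Rian (-2.93 ± 0.23) and Mirg (-3.00 ± 0.22) changed almost as much, and in all 3 no 20-week library reached the 5-week range. Whether reads were counted by strand is not given, and Meg3 overlaps Rtl1, which runs on the other strand; Rtl1 itself was too low to be tested.

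Of 27 imprinted genes listed, 22 were tested, 16 fell and 1 rose, with a median log2 change of -0.88. Mest went from 6.74, 12.6 and 32.97 CPM to 0.487, 1.82 and 7.88 CPM (-2.69 ± 0.29). Cdkn1c, which encodes the cyclin-dependent kinase inhibitor p57, fell by 2.14 ± 0.19, and Dlk1, the paternally expressed ligand of the Meg3 cluster, by 2.69 ± 0.33. The fetal growth factor Igf2 fell by 1.86 ± 0.23, from 1.87, 6.54 and 9.60 CPM to 0.779, 1.71 and 4.60 CPM. H19, its non-coding neighbour, was far more abundant, with medians of 3493 CPM at 5 weeks and 2710 CPM at 20 weeks and overlapping ranges, and fell by 0.39 ± 0.08. Peg3 fell by 1.86 ± 0.42, though its highest 5-week library stood at 103 CPM against a median of 10.4 CPM. The member that rose was Igf2r, the receptor that clears Igf2 (0.40 ± 0.10).

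**Figure D3:**
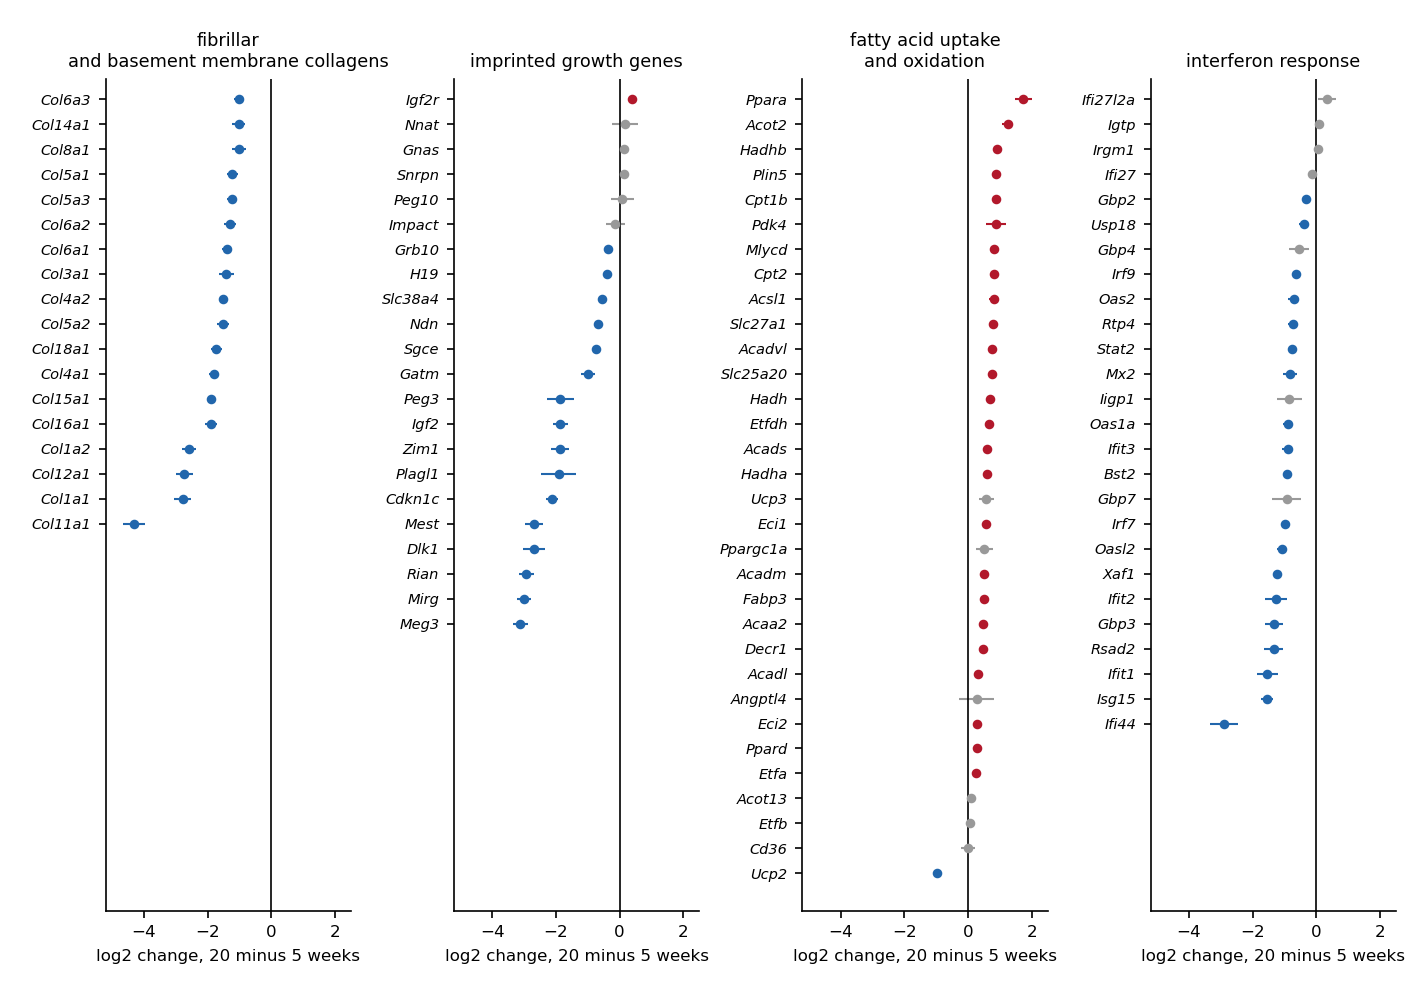
Log2 change from 5 to 20 weeks (20 minus 5) of the tested members of 4 lists, 1 interferon list member left out, with its standard error as a bar; red is called higher, blue called lower and grey not called at an adjusted p of 0.05. All 18 collagens lie left of 0, Meg3, Mirg and Rian are the lowest imprinted genes, and Ucp2 is the only fatty acid gene called lower.

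Of 25 tested members of the insulin-like growth factor and growth hormone axis, 12 fell and 6 rose. Over all genes tested, 25.9% fell and 24.2% rose. Igf1, the growth factor that muscle makes locally under growth hormone, went from 7.91, 10.6 and 19.5 CPM to 1.07, 3.07 and 5.07 CPM. The ages did not overlap, and the log2 change was -1.86 ± 0.17 (adjusted p = 5.53e-09). The binding proteins Igfbp3 (-1.42 ± 0.11) and Igfbp7 (-1.17 ± 0.09) also fell without overlap, and the receptor Igf1r fell by 0.48 ± 0.15. The receptor adaptors Irs2 and Irs1 were among the 6 that rose. Irs2 rose by 1.52 ± 0.26 and Irs1 by 0.74 ± 0.20. The growth hormone receptor Ghr had a log2 change of 0.05 ± 0.20 (adjusted p = 0.849) and its target Cish one of -0.11 ± 0.35.

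In the fit over both sexes, genes of the contractile machinery that define fibre type were mostly not called. By the authors' FPKM, which are scaled to gene length, Myh7 had medians of 1102 at 5 weeks and 1233 at 20 weeks. Myh2 (type IIa) had FPKM medians of 738.7 and 715.1, Myh1 (type IIx) of 491.8 and 536.1, and Myh4 (type IIb) of 66.95 and 153.7. No adult myosin heavy chain passed the test, with log2 changes of 0.12 ± 0.07 in Myh7 (adjusted p = 0.168), 0.06 ± 0.15 in Myh2, 0.03 ± 0.20 in Myh1 and 0.62 ± 0.39 in Myh4 (adjusted p = 0.187). Myh6, the cardiac alpha chain, was read at a median of 2742 CPM at 5 weeks; it is a near-identical neighbour of Myh7, and its reads cannot be kept apart from that gene here. Of 15 slow fibre genes 3 rose and 1 fell, and of 19 fast fibre genes 4 rose and 3 fell. These counts were below the shares over all genes. Fitted within a sex, the slow list had a median log2 change of -0.11 in males and 0.24 in females. In males 2 slow genes rose and 4 fell, against 16.7% and 15.7% of all genes. In females 6 rose and 1 fell, against 17.9% and 19.6%. The difference between the sexes was not tested for the list.

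Both calcium pumps of the sarcoplasmic reticulum rose: Atp2a2 (SERCA2) from 2653, 3813 and 5169 CPM to 4152, 5865 and 7346 CPM (0.59 ± 0.06), and Atp2a1 (SERCA1) by 0.58 ± 0.08. Fhl2 (0.70 ± 0.09) and the Z-disc gene Ldb3 (0.20) were the other slow genes that rose. Myl6b, an alkali light chain of slow muscle and non-muscle cells, fell from 402, 516 and 684 CPM to 61.0, 184 and 335 CPM (-1.53 ± 0.19). Among the fast genes, the light chains Myl1 (-0.57 ± 0.07) and Mylpf (-0.38 ± 0.09) and the calcium store protein Casq1 (-0.45 ± 0.06) fell.

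In the list of excitation and calcium release genes, 17 of 34 members rose and 6 fell, with a median log2 change of 0.28. The shares over all genes tested were 24.2% and 25.9%. Scn4a, the sodium channel that carries the fibre's action potential, stood at 127, 207 and 255.8 CPM at 5 weeks and 297, 483 and 749 CPM at 20 weeks. No library of one age entered the range of the other, and the log2 change was 1.26 ± 0.13 (adjusted p = 1.99e-08). Cacna1s, the voltage sensor of the T-tubule, rose by 1.10 ± 0.11 without overlap. The calcium release channel Ryr1 rose by 0.70 ± 0.09. Pln (phospholamban), the SERCA2 inhibitor, rose by 1.45 ± 0.24 from a low level, 0.965 CPM to 2.68 CPM in the medians. The related inhibitor Sln (sarcolipin) fell by 0.43 ± 0.13.

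Of 28 tested developmental muscle genes, 14 fell and 7 rose, against 25.9% and 24.2% over all genes tested. The growth factor midkine, Mdk, fell from 1.57, 3.90 and 6.15 CPM to 0.682, 1.00 and 1.56 CPM (-1.89 ± 0.20). The cardiac alpha-actin Actc1, an actin of immature fibres, fell by 0.95 ± 0.22, and the differentiation factor Myog by 0.69 ± 0.21. Embryonic Myh3 (-0.52 ± 0.24, adjusted p = 0.0716) and neonatal Myh8 (0.39 ± 0.21, adjusted p = 0.128) did not pass the test. Against the same shares, 12 of 18 satellite cell genes fell and 2 rose (median -0.71). Pax7, which defines satellite cells, went from 10.0, 12.6 and 18.9 CPM to 5.53, 9.26 and 12.4 CPM (-0.61 ± 0.12, adjusted p = 0.000183). Myf5, the activation factor of these cells, fell by 1.31 ± 0.25, Chodl by 2.32 ± 0.24, and Calcr, the receptor that holds them quiescent, by 1.62 ± 0.21. The 2 members that rose were Sdc4 (0.56 ± 0.12) and Cdh15 (0.33 ± 0.08), the latter also expressed by fibres.

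At the neuromuscular junction, 8 of 23 tested genes rose and 6 fell, against 24.2% and 25.9% over all genes tested. Chrna1, the alpha subunit of the muscle acetylcholine receptor, rose from 34.1, 49.0 and 59.8 CPM to 59.1, 92.3 and 131 CPM (0.86 ± 0.09), and the delta subunit Chrnd by 0.47 ± 0.09. The beta subunit Chrnb1 fell by 0.72 ± 0.11, and the adult epsilon subunit Chrne had a log2 change of -0.03 ± 0.11 (adjusted p = 0.853). Agrn, the nerve-derived and muscle-derived organiser of the synapse, fell by 1.07 ± 0.11, while Colq, the collagen tail that anchors acetylcholinesterase, rose by 0.76 ± 0.12.

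Fuel use genes rose as a group. Of 32 genes of fatty acid uptake and oxidation, 25 rose and 1 fell, with a median log2 change of 0.59. Ranges did not meet in 8 members. The matching shares over all genes tested were 24.2%, 25.9% and 5.65%. Hadhb, the thiolase subunit of the mitochondrial trifunctional protein, stood at 384, 449 and 472 CPM at 5 weeks and at 622, 841 and 963 CPM at 20 weeks. The 2 sets of 12 were separate, and the log2 change was 0.90 ± 0.07 (adjusted p = 2.44e-10). Cpt1b, the gate of fatty acid entry into mitochondria, rose by 0.88 ± 0.10, the acyl-CoA dehydrogenase Acadvl by 0.77 ± 0.09 and the fatty acid transporter Slc27a1 by 0.79 ± 0.09. Ppara, the nuclear receptor that drives many of these genes, rose from 2.02, 5.03 and 10.2 CPM to 6.52, 14.7 and 33.7 CPM (1.73 ± 0.26). The exception was Ucp2 (-0.99 ± 0.13). Cd36, the sarcolemmal fatty acid receptor, had a log2 change of 0.01 ± 0.23 (adjusted p = 0.985).

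Glucose handling rose alongside. In the glycolysis and glycogen list, 20 of 35 genes rose and 2 fell, with a median of 0.28. Slc2a4, the insulin-responsive transporter GLUT4, went from 398, 492 and 602 CPM to 732, 864 and 990.1 CPM with no overlap (0.81 ± 0.07, adjusted p = 1.35e-09). Hk2 (0.97 ± 0.08), the muscle hexokinase, Gys1 (0.93 ± 0.08), glycogen synthase, Pygm (0.67 ± 0.08), glycogen phosphorylase, and Pfkm (0.58 ± 0.06), muscle phosphofructokinase, were likewise separate between ages. The 2 that fell were the isoforms typical of other cells, Hk1 (-0.63 ± 0.08) and Pfkp (-0.75 ± 0.10). Acacb, the muscle acetyl-CoA carboxylase whose product restrains Cpt1b, rose by 1.24 ± 0.09, whereas the fatty acid elongase Elovl6 fell by 1.88 ± 0.34. Among 30 genes of cholesterol and fatty acid synthesis, 5 rose and 10 fell, against 24.2% and 25.9% over all genes tested.

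Respiratory chain genes moved by small amounts. Of 52 nuclear-encoded subunits, 18 rose and 3 fell, against 24.2% and 25.9% over all genes tested. The median log2 change of the subunits was 0.12. The succinate dehydrogenase subunits Sdhd (0.46 ± 0.06) and Sdha (0.44 ± 0.09) and the ATP synthase subunit Atp5a1 (0.39 ± 0.06) were among those that rose. The 3 that fell were Ndufa1 (-0.42 ± 0.08), Uqcrb (-0.45 ± 0.10) and Ndufa5 (-0.31 ± 0.07). When all 97 soleus libraries shared one estimate of the spread, 11 subunits rose, beside 3267 of all 17520 genes. Without the deviating libraries 26 subunits rose, beside 4064 of all 15754 genes. Of the 13 genes encoded in mitochondrial DNA, 0 rose and 1, mt-Co2, fell (-0.68 ± 0.24); their summed level reached 120000 CPM in one 5-week library against a median of 48390 CPM.

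Secreted muscle factors and genes of protein breakdown held both directions. In the myokine list 4 of 18 tested genes rose and 5 fell, close to the 24.2% and 25.9% over all genes tested. Besides Ostn, the cytokine gene Il15 rose from 0.853, 1.49 and 2.41 CPM to 2.97, 4.19 and 8.49 CPM without overlap (1.56 ± 0.17). Fndc5, the precursor of irisin (0.25 ± 0.08), and the activin subunit Inhbb (0.44 ± 0.17) rose less. Erfe (erythroferrone, also called myonectin) fell from 5.37, 8.78 and 15.2 CPM to 0.809, 2.28 and 5.22 CPM without overlap (-1.98 ± 0.23). Mstn, Il6 and Fgf21 were too low to be tested.

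Of 28 atrophy and FoxO target genes, 11 rose and 7 fell, against 24.2% and 25.9% over all genes tested. The autophagy gene Gabarapl1 rose from 55.0, 78.4 and 89.4 CPM to 138, 210.4 and 294 CPM with no overlap (1.44 ± 0.08, adjusted p = 5.14e-12). The muscle ubiquitin ligases Fbxo32 (atrogin-1, 0.74 ± 0.15) and Trim63 (MuRF1, 0.61 ± 0.09) rose. Foxo1, the factor that drives them, fell by 0.45 ± 0.12, and Ddit4, an mTOR inhibitor, fell by 1.68 ± 0.21 without overlap.

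Clock genes rose in 10 of 19 and fell in 0, with a median of 0.33. Cry2, a repressor of the core loop, went from 30.9, 43.8 and 65.5 CPM to 66.6, 79.4 and 107 CPM with ranges apart (0.87 ± 0.10). Bhlhe40 (1.05 ± 0.14) was also separate. The genes with the largest daily swings gave little: Per2 had a log2 change of 0.03 ± 0.35, Dbp of 0.26 ± 0.28 and Arntl of 0.12 ± 0.19, none called. The hour of collection is not in the labels used here, and its part in these values was not tested. Immediate early genes, which respond within minutes to activity or handling, rose in 7 and fell in 3 of 21. The shares over all genes tested were 24.2% and 25.9%. Nr4a1 rose by 1.503 ± 0.20 and Fos by 1.47 ± 0.32.

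Interferon-stimulated genes fell. Of 27 tested, 20 fell and 0 rose, with a median log2 change of -0.85 and 5 members whose ranges did not meet. The matching shares over all genes tested were 25.9%, 24.2% and 5.65%. Interferon-stimulated genes encode antiviral proteins and are induced through a complex that holds STAT2 and IRF9. Isg15, a ubiquitin-like modifier, stood at 2.61, 6.27 and 10.2 CPM at 5 weeks and at 0.987, 2.39 and 3.21 CPM at 20 weeks. Only the lowest young library fell into the older range, and the log2 change was -1.55 ± 0.20 (adjusted p = 5.21e-07). Ifi44 fell by 2.91 ± 0.44 and Oasl2 by 1.09 ± 0.13, both without overlap. Of the factors, Stat2 (-0.76 ± 0.09) and Irf9 (-0.65 ± 0.06) were separate between ages, and Irf7 fell by 0.99 ± 0.13.

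The interferon promoters are shown because the complex binds a defined repeat. Of the 29 listed genes, 18 matched a RefSeq promoter on GRCm38.p6. The core of the interferon-stimulated response element, GAAA, any 2 bases and GAAA again on either strand, was found in 12 of 18 (66.7%), against 3.44% of all promoter windows of the same length. Among the 15 members that fell and matched a promoter, 9 held it. Here too a listed gene counted if any of its windows matched. The 3 called members with the lowest p that hold it within 120 bases before the start are printed 5′ to 3′ on the gene's strand, with each match in capitals; adjoining matches run together. As before, only members with a single promoter window, and outside the chromosome left out, were eligible. Isg15 lies at chr4:156200819-156200938 (minus strand), Oas1a at chr5:120907526-120907645 (minus strand) and Ifit1 at chr19:34640769-34640888 (plus strand).
Isg15: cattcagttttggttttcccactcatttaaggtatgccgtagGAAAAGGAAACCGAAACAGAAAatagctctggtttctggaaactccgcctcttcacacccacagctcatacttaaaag
Oas1a: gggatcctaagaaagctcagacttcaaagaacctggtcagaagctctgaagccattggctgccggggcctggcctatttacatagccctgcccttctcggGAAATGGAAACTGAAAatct
Ifit1: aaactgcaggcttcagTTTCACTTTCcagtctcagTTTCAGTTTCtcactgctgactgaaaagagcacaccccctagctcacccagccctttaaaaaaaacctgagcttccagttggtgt
Oas1a fell by 0.88 ± 0.17 on the log2 scale and Ifit1 by 1.53 ± 0.33. No match in a window says only that these letters are absent from it.

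Antigen presentation genes did not follow the interferon genes as a body. Of 19 tested, 6 rose and 4 fell, against 24.2% and 25.9% over all genes tested. The class II genes Cd74 (0.89 ± 0.23) and H2-Aa (0.83 ± 0.26) rose, while B2m, the light chain of class I, fell by 0.37 ± 0.07. Fitted within a sex, 6 members of the list rose and 2 fell in males, against 16.7% and 15.7% of all genes. In females 1 rose and 2 fell, against 17.9% and 19.6%. The difference between the sexes was not tested for the list. Markers of T and B cells and neutrophils were near 0: 2 of 20 and 0 of 13 passed the filter. Among 15 tested macrophage markers 2 rose and 3 fell, below the shares over all genes. The summed macrophage level had medians of 110.4 CPM at 5 weeks and 111 CPM at 20 weeks, and its 2 highest values, up to 262.9 CPM, were in male 20-week libraries. Mrc1, the mannose receptor of resident macrophages, fell by 1.32 ± 0.23, and Cd68, a lysosomal marker, rose by 1.02 ± 0.38, with 32.98 CPM in its highest library against a median of 4.36 CPM at 20 weeks; the call of Cd68 was lost without the deviating libraries and without the nerve-rich and keratin-rich ones.

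Nerve and endothelial genes fell. Of 17 tested Schwann cell and nerve markers, 16 fell and 0 rose (median -1.32). Mbp, which encodes a myelin protein, stood at 64.3, 78.04 and 695 CPM at 5 weeks and at 26.5, 50.8 and 104 CPM at 20 weeks. The ranges overlapped, and the log2 change was -1.34 ± 0.34 (adjusted p = 0.00182). Without the nerve-rich and keratin-rich libraries, 15 of these markers fell. Among 21 endothelial markers 18 fell and 0 rose (median -0.75). Erg, an endothelial transcription factor, fell from 16.8, 22.3 and 44.9 CPM to 4.28, 6.95 and 12.8 CPM with ranges apart (-1.67 ± 0.21). Pecam1 (-0.65 ± 0.09) and the junction protein Cdh5 (-0.75 ± 0.11) fell less, as did the pericyte gene Rgs5 (-1.37 ± 0.22) and the progenitor and vessel marker Cd34 (-0.94 ± 0.12). In the list of 16 smooth muscle and pericyte markers, 9 fell, 1 of them at least 2-fold, and 1 rose (median -0.37). The summed level of that list had medians of 5315 CPM at 5 weeks and 6175 CPM at 20 weeks, with overlapping ranges.

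Fat and blood markers gave small or mixed changes. Of 17 tested adipocyte markers, 3 rose and 3 fell, below the 24.2% and 25.9% over all genes tested. Fitted within a sex, the median log2 change of the list was 0.72 in males (4 rose, 3 fell) and -0.40 in females (1 rose, 3 fell); the difference between the sexes was not tested for the list. Adipoq, which defines adipocytes, had a log2 change of 0.30 ± 0.33 (adjusted p = 0.472), with 0.899 to 14.9 CPM at 5 weeks and 2.75 to 20.5 CPM at 20 weeks. Fabp4, which endothelium also makes, fell by 0.57 ± 0.08 and Cidea rose by 0.83 ± 0.10. Erythroid markers rose in 4 of 7, against the 24.2% over all genes tested. Hbb-bs rose by 0.50 ± 0.16 and Alas2 by 0.51 ± 0.19, and the globin genes are close copies of one another. Where the summed levels of nerve, vessel or tendon markers differ between the ages as above, their part in the other gene lists was not tested.

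**Figure D4:**
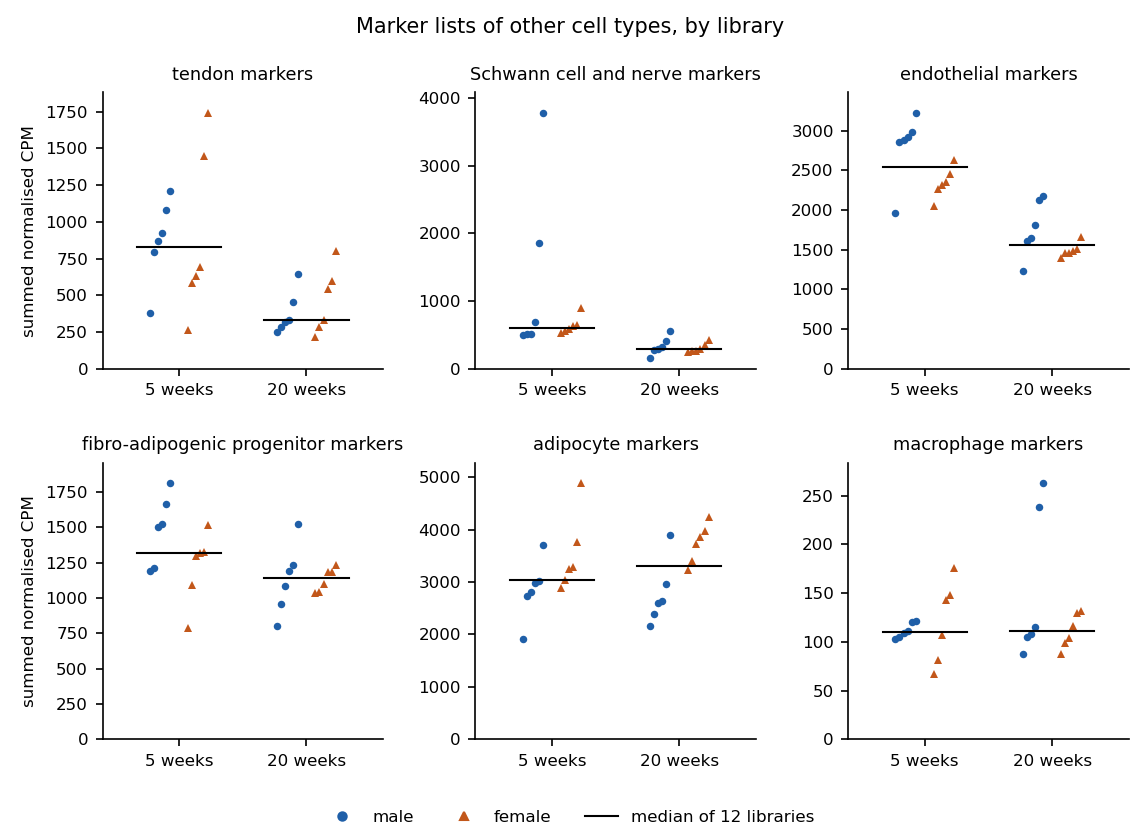
Summed CPM of 6 marker lists of other cell types in each B6 soleus library, on linear axes from 0, with males as circles, females as triangles and the median of 12 libraries as a line. The ranges of the 2 ages overlap in all 6 sums; medians are lower at 20 weeks in tendon, Schwann cell, endothelial and progenitor markers, and 2 male 5-week libraries stand far above the rest in Schwann cell markers.

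The age change was also fitted within each sex. Males gave 5161 calls among 15966 genes (32.3%): 2661 rises (16.7%) and 2500 falls (15.7%). Females gave 5990 calls (37.5%): 2861 rises (17.9%) and 3129 falls (19.6%). Called in both sexes were 3815 genes, of which 3810 changed in the same direction. Across genes, which are not independent replicates, the correlation of the male and female log2 changes was 0.783 over all genes tested.

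A difference between the sexes in the age change was called in 0 genes (0.0%) by edgeR, with 959 genes (6.007%) at an unadjusted p under 0.05 and a lowest adjusted p of 0.107; DESeq2 called 1 gene in which males changed more upward and 6 in which they changed more downward. The median standard error of this difference was 0.251 on the log2 scale, against 0.125 for the age change itself. The log2 change of Nos1 was 2.94 ± 0.23 in males and 1.87 ± 0.22 in females, a difference of 1.07 ± 0.31 that did not pass over all genes (adjusted p = 0.451). At 20 weeks Nos1 ran from 42.6 to 93.6 CPM in males and from 20.9 to 48.2 CPM in females. Ostn ran the other way, from 32.4 to 43.9 CPM in 20-week males and from 50.4 to 87.9 CPM in 20-week females, with log2 changes of 2.23 ± 0.16 and 2.62 ± 0.16 (adjusted p of the difference 0.819). Cyp1a1 rose by 4.31 ± 0.53 in males and 2.69 ± 0.53 in females (adjusted p of the difference 0.814).

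TH soleus on the same diet and at the same ages served as the comparison for what belongs to B6. In a joint fit of 47 libraries and 17008 genes, the age change was called in 7444 genes (43.8%) in TH, 19.7% rising and 24.1% falling, and in 7929 (46.6%) in B6, 23.9% rising and 22.8% falling. Called in both were 4244 genes, 53.5% of the B6 calls and 57.0% of the TH calls, and 4147 of them changed in the same direction. All 24 of the largest rises and falls of B6 were called in the same direction in TH. The correlation of the 2 strains' log2 changes across genes was 0.623.

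**Figure D5:**
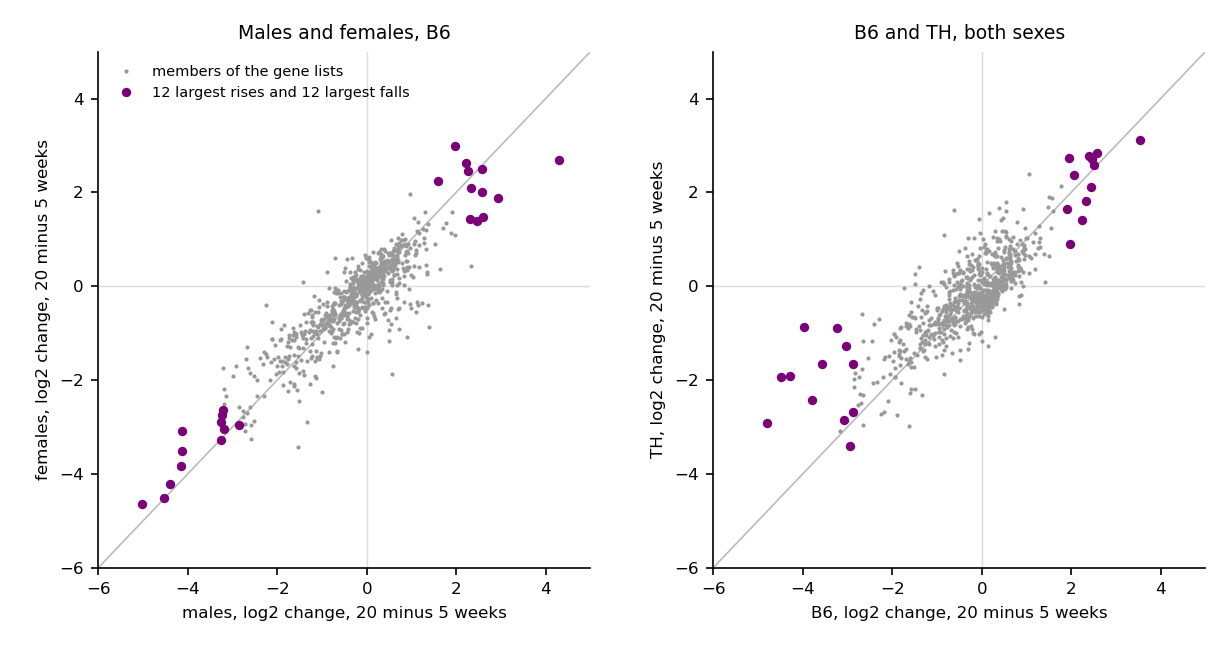
Log2 change from 5 to 20 weeks (20 minus 5) for members of the gene lists (grey) and the 24 largest rises and falls of B6 (purple): females against males in B6 (left) and TH against B6 (right), with the line of equal change. Males and females lie along the line; several of the largest B6 falls, Tnmd and Kera among them, lie above it in TH, having been chosen for their B6 change.

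The strain difference in the age change passed the test in 2255 genes (13.3%), 1612 with the B6 change above that of TH (9.48%) and 643 with it below (3.78%). These counts rest on few libraries. Without TH male 5-week replicate 1 the counts were 672 above and 333 below, without replicate 2 they were 2879 and 2142, and without replicate 4 they were 2522 and 1141. With all soleus libraries in one fit they were 271 and 267. The differences furthest below 0 included tendon genes. Tnmd changed by -3.97 ± 0.35 in B6 and -0.87 ± 0.30 in TH, a difference of -3.10 ± 0.45 (adjusted p = 6.23e-05). Kera (-2.56 ± 0.55) and Ptx4 (-2.36 ± 0.49) differed likewise. Of the 14 tendon markers 6 were called below in B6, against 3.78% of all genes, and 5 to 9 under the alternatives run. In TH 8 of 14 fell against 12 of 14 in B6. In the joint fit the tendon factor Mkx changed by -2.67 ± 0.30 in B6 and -1.18 ± 0.26 in TH, a difference of -1.49 ± 0.41 (adjusted p = 0.0202).

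A further pair of genes with a lower B6 change, Dsp (-4.35 ± 1.46) and Col17a1 (-3.52 ± 0.88), are epidermal junction genes. Their highest B6 5-week values, 48.7 and 37.97 CPM, came from the female 5-week group, whose replicate 1 is the keratin-rich library, against medians of 0.125 and 0.482 CPM. Without the nerve-rich and keratin-rich libraries of both strains the Dsp difference was -1.69 (adjusted p = 0.115) and the Col17a1 difference -1.73 (adjusted p = 0.0105).

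The differences furthest above 0 were genes that fell in TH and changed little in B6. Tecta changed by 0.31 ± 0.17 in B6 and -1.31 ± 0.18 in TH, a difference of 1.62 ± 0.25 (adjusted p = 0.000142). Enho, which encodes adropin (1.40 ± 0.20), Crym, a thyroid hormone binding protein (1.43 ± 0.24), Mamstr, a MEF2 coactivator (1.28 ± 0.15), and the clock output gene Dbp (1.38 ± 0.44) completed the 5. The Dbp difference was not called without the deviating libraries of both strains (0.978, adjusted p = 0.123). In TH, 4 of 52 nuclear respiratory chain genes rose and 31 fell. Of the 52, 31 were called above in B6, against 9.48% of all genes. That count did not hold: it was 1 with all soleus libraries in one fit, 2 with the GC slope as covariate, 14 with no filter on low counts and 11 without TH male 5-week replicate 1. Of 32 fatty acid genes, 19 rose and 2 fell in TH, and 4 were called above in B6, or 0 with all soleus libraries, with the GC slope or without TH male 5-week replicate 1. The antiviral gene Ifit3 fell in B6 (-0.85 ± 0.22 in the joint fit) and rose in TH (1.09 ± 0.22), a difference of -1.95 ± 0.31 (adjusted p = 0.000163), while 19 of 27 interferon genes fell in TH. Foxo1 and the endoplasmic reticulum chaperone Hspa5 also changed in opposite directions, -0.41 ± 0.11 and -0.33 ± 0.14 in B6 and 0.28 ± 0.11 and 0.63 ± 0.15 in TH. Ifit3, Foxo1 and Hspa5 were chosen after their values were seen.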

How the data were processed

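Soleus RNA was poly(A)-selected and sequenced from stranded libraries, and only RNA with an integrity number above 8 was used, per the labels' protocols. The submitters' processing notes name the build GRCm39 with DESeq, DESeq2, SAMtools, HISAT2 2.2.1 and Trimmomatic 0.39. The counter, its strand setting and the annotation remain not given in the sources used here. The deposited count table holds raw read counts per gene, and 302 of its columns belong to other tissues and were not used. The FPKM that the authors deposited (375 columns not used) served only to give levels, between genes and at each age, and were not tested. Identifiers were matched to symbols by a gene name table (52073 of 56980), and RefSeq on GRCm38.p6 served for synonyms and promoters only.

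Counts were scaled by TMM and tested with edgeR 4.0.16 (glmQLFit, glmQLFTest; R 4.3.3, limma 3.58.1) after filterByExpr (minimum count 10, minimum total 15), with sex as covariate. P-values were adjusted by Benjamini-Hochberg, and a gene was called at 0.05. The standard error is the log2 change divided by the root of F. The sexes were compared by an interaction in the same 24 libraries, and the strains in 47. Replicates are separate animals by label. Alternatives were RLE factors, no filter, DESeq2 1.42.0, a replicate block, all 97 soleus libraries and leaving out single libraries; a GC slope covariate and 2 sets of left-out libraries were added after seeing the data. Named genes are the 12 largest rises and 12 largest falls among called genes with mean log2 CPM of at least 1 and the same sign in both sexes, the 5 highest and 5 lowest of each interaction, and at most 5 called or defining members of each of 37 lists (887 genes, all matched), whose other members are named where a count needed it. The members and lists were chosen with earlier results of these data known. No pair of libraries within a group agreed within sampling noise. Simulated counts with the real means (15599 genes) gave back 91 of 107 genes changed by 1 on the log2 scale. They gave back 44 of 91 changed by 0.5, with 8 unchanged genes called. The simulation left 15401 genes unchanged, drew rises and falls with equal chance and had no sex effect. Its rates were not measured for data in which 50.1% of genes are called and large changes are mostly falls. Results for some genes are not reported here.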

Additional observations from a re-analysis of the deposited data

Results flagged for a closer look

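In 11 of 96 groups of 6 libraries tested, 1 library lay far from the other 5, in each case above them. The rule was set to flag about 1 in 20 groups by chance alone. The 96 groups draw on the same 24 libraries and are not independent, so the 11 were not compared with that rate. Cyp1a1 stood at 2.00 CPM in male 5-week 6 and at 38.8 CPM in male 20-week 6. Cyfip2 stood at 43.7 CPM in female 5-week 1. Meg3 stood at 144 CPM in male 5-week 6 and at 215.1 CPM in female 5-week 5, where Rian was also high at 77.8 CPM. Col11a1 in male 20-week 6 (1.65 CPM), Tnmd (2.66 CPM) and Ptx4 (2.94 CPM) in female 20-week 5, and Mirg (2.25 CPM) and Ccn4 (1.64 CPM) in male 20-week 1 were the high ends of genes that fell with age. Female 5-week 5 and male 20-week 6 are among the 4 libraries far from their group mean.

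The age change differed between B6 and TH, by the interaction of age and strain, in 10 named genes. The B6 change was above that of TH by 1.62 in Tecta, 1.43 in Crym, 1.40 in Enho, 1.38 in Dbp and 1.28 in Mamstr on the log2 scale. The B6 minus TH difference was -4.35 in Dsp, -3.52 in Col17a1, -3.10 in Tnmd, -2.56 in Kera and -2.36 in Ptx4. The B6 values of Dsp and Col17a1 include the keratin-rich library, and the calls of Dsp and Dbp were lost under some alternatives.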

How the results depend on the processing

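The age effect kept its direction for every called gene followed, and its counts stayed within 1.5 times under each alternative run: 3174 to 4305 genes higher and 3786 to 5265 lower. The sex interaction, at 0 genes, gave 1 higher and 6 lower with DESeq2, 2 higher with all soleus libraries, 3 higher and 8 lower with the GC slope, and 1 higher without deviating libraries. The strain interaction was unstable. Against 1612 above and 643 below, it gave 606 and 324 with no filter, 995 below with DESeq2, 271 and 267 with all soleus libraries, 422 above with the GC slope and 2102 below without deviating libraries. Leaving out each TH male 5-week library in turn gave 672 to 2879 above and 333 to 2142 below. The causes were not tested. The replicate numbers do not pair the animals (correlations of same-numbered libraries from -0.22 to 0.40): with the replicate block 3648 genes were higher and 3786 lower with age, 988 above and 453 below for strain, and 0 for sex. Among lists, without deviating libraries 6 slow fibre and 21 ribosomal protein genes rose (3 and 10 with all libraries). With all soleus libraries 2 fast fibre, 11 respiratory chain, 2 ribosomal, 1 adipocyte and 1 erythroid gene rose. With no filter 4 ribosomal and 1 adipocyte genes rose and 6 other-organ markers fell; 1 adipocyte gene rose with the block or without nerve-rich libraries. Of single genes, 29 settings of 1345 lost the call, none turned. Those of Dbp (adjusted p up to 0.123) and Dsp (up to 0.168) were the strain differences lost; the calls of Cd68, Ldb3, Fndc5, Inhbb, Alas2, Hbb-bs, P3h2, Hspa5 and mt-Co2 for age were lost in 1 to 3 settings. Depth limits genes near 0 at 20 weeks, such as Fbn2.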
